A study of Homo sapiens with 18 samples.

Results

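The genes described here are those of the cyclin D, CDK4/6, CDK inhibitor and RB module, a list of 10 genes: CCND1, CCND2, CCND3, CDK4, CDK6, CDKN1B, CDKN1C, CDKN2C, RB1 and RBL2. They were taken as the array features that name a listed gene. Of 70523 features, 9 did so, with 1 feature for each of 9 genes, and no feature names CDKN2C, which was not analysed here. All 9 features passed the noise filter and were among the 16336 genes tested.

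Cells of the human lung adenocarcinoma line HCC4006, which carries a mutant EGFR, received siRNA against Notch1 (N1) or against Notch3 (N3), or a control siRNA without a target (NTC). The cells were then treated with DMSO, the vehicle, or with 0.1 µM erlotinib, an EGFR tyrosine kinase inhibitor for 5 days by the series' design text. A different number of days on drug stands in the paper. This gave 6 groups of 3 arrays, named NTC DMSO, N1 DMSO, N3 DMSO, NTC erlotinib, N1 erlotinib and N3 erlotinib, and all are of this single line. Arrays were numbered 1 to 3 in each group but N3 erlotinib, whose arrays were numbered 4 to 6, so that handling apart from the other groups and N3 knockdown in erlotinib cannot be told apart.

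D-type cyclins bind the kinases CDK4 and CDK6 and are the part of the cell cycle machinery that responds most directly to growth factor signaling. The active kinases phosphorylate the RB protein and its relatives, which otherwise hold back E2F transcription factors and with them the genes of DNA replication. CDK inhibitors of the INK4 family block CDK4 and CDK6, while those of the CIP/KIP family mainly block CDK2 complexes, and in EGFR mutant lung cancer cells an EGFR inhibitor is known to stop cells in G1.

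Levels are the authors' log2 values, and 1 unit is a doubling. The median of an array lay between 4.84 and 5.01, and arrays correlated across all features at 0.992 to 0.997 within groups and 0.979 to 0.997 between groups. NOTCH3 was lower with N3 by 0.57 on the log2 scale in DMSO (log2 fold change -0.57, adjusted p = 5.75e-06 from limma) and by the same amount in erlotinib (adjusted p = 4.11e-06). NOTCH1 fell by 0.30 with N1 in DMSO (adjusted p = 0.000291 from limma). Erlotinib itself lowered NOTCH1 with NTC (-0.18, adjusted p = 0.00222), while with N1 its change was 0.04 (adjusted p = 0.440). In erlotinib the log2 fold change of NOTCH1 with N1 against NTC was -0.08 (adjusted p = 0.214). The N1 erlotinib values below thus come from arrays where the transcript of the targeted gene did not pass the test. On these arrays NOTCH3 was higher than with NTC by 0.25 (adjusted p = 0.00818 from limma), and its part in the N1 erlotinib values was not tested. For protein, which the arrays do not measure, the paper reports western blots in which each knockdown was specific and seemed complete. All 8 epithelial markers lay above the array median on all 18 arrays, and PTPRC, CD3E, DCN and PECAM1 on 0 arrays. CD14, of the leukocyte markers, lay above it on 9 arrays, with group means of 5.05 to 5.44 in DMSO and 4.60 to 4.69 in erlotinib, and CDH5, of the endothelial markers, on 15. COL1A1, ACTA2, PDGFRB and VWF, from the lists of fibroblast, muscle and endothelial markers, lay above it on 18 arrays, and the part of these markers in the results was not tested.

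Erlotinib lowered the D-type cyclins CCND1 and CCND3 and the kinase CDK4, and raised the CIP/KIP inhibitor CDKN1B and the RB relative RBL2, with each of the 3 siRNAs. CCND1 had the widest range among the 9 genes. The question of this comparison was how the module stood after growth factor signaling had been blocked, and whether Notch knockdown altered it. A gene was called at an adjusted p under 0.05 from limma, with Benjamini-Hochberg adjustment over all genes tested. In NTC cells 3 of the 9 genes were called higher and 4 lower, against 24.6% and 25.4% of all genes tested. In N1 cells the counts were again 3 and 4, against 31.7% and 23.7%, and in N3 cells 3 and 4, against 24.9% and 27.7%. About every second gene on the array was thus called in these comparisons, and the count of called members, 7 of 9, is to be read against that. The median log2 fold change of the 9 genes in NTC cells was 0.04, and that of all genes was -0.02. At the stricter thresholds that the Methods give, where unadjusted p has to be under 5e-04 and the fold change 2 or more, CCND1 alone of the 9 passed in each of the 3 comparisons. All genes passed these thresholds in 3.65%, 3.2% and 4.16% of cases with NTC, N1 and N3. No source says whether the arrays of a group came from separate cultures, so the p values measure only the spread between arrays, which may be technical.

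**Figure D1:**
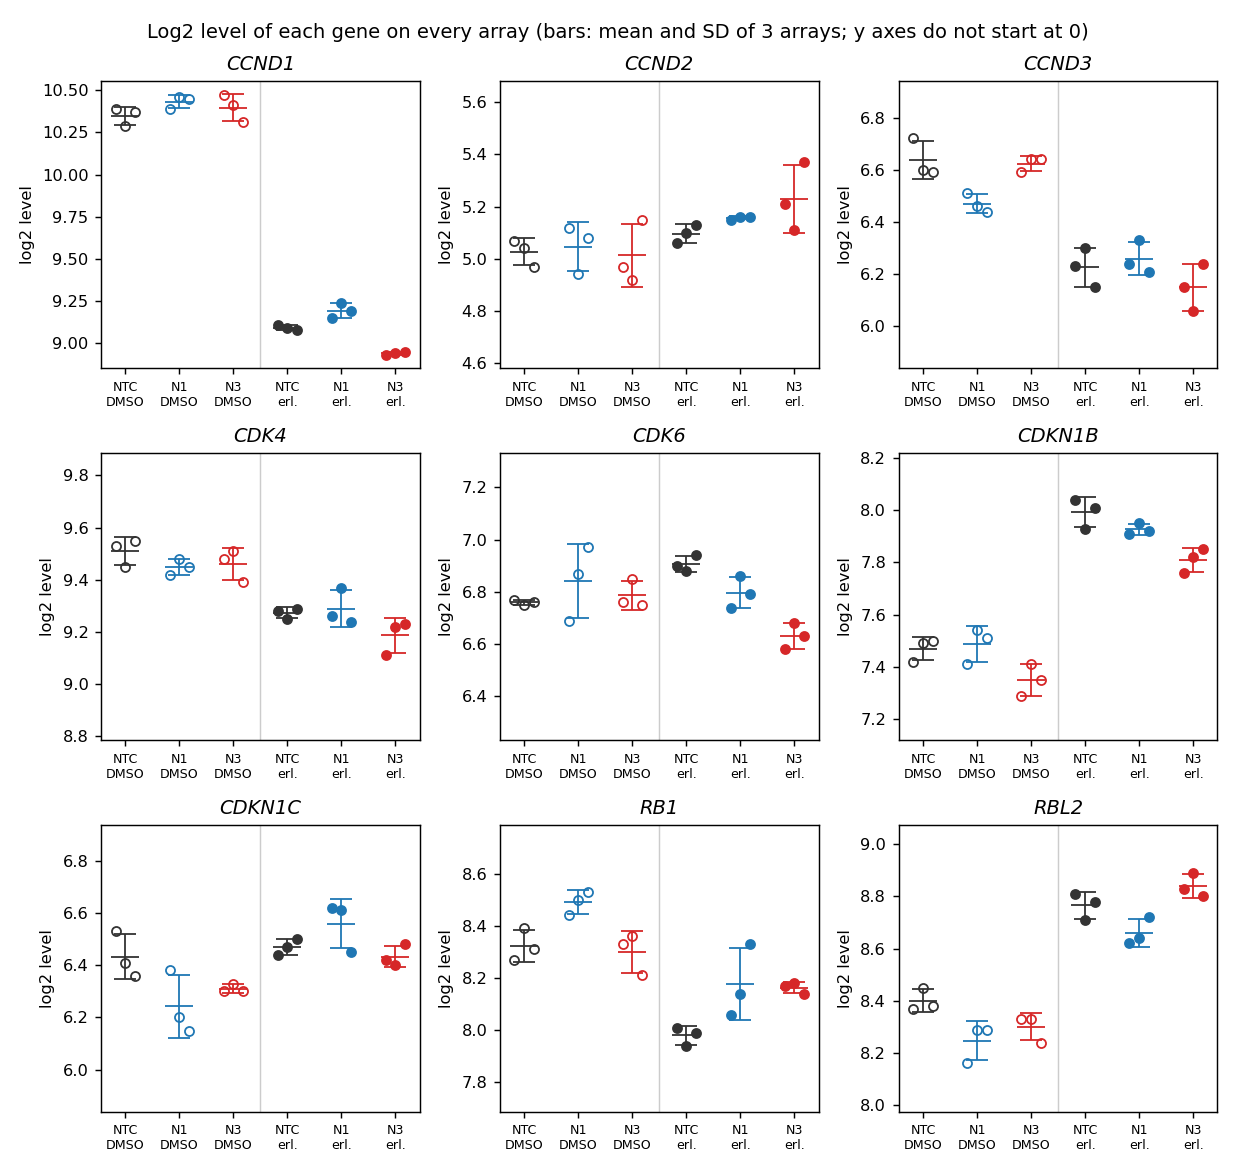
Log2 level on each array (points, y axis) of the 9 genes by group (x axis, 3 arrays a group), 1 panel for each gene with its own y scale that does not start at 0 (open: DMSO, filled: erlotinib, bars: mean and SD of 3 arrays). CCND1 lies above 10 on the DMSO arrays and below 9.3 on the erlotinib arrays, and CDKN1B and RBL2 lie higher on the erlotinib arrays.

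CCND1 encodes cyclin D1, the D-type cyclin most often linked to receptor tyrosine kinase signaling in epithelial cells. In DMSO its log2 level was 10.39, 10.29 and 10.37 on the NTC arrays, 10.39, 10.46 and 10.45 on the N1 arrays, and 10.47, 10.41 and 10.31 on the N3 arrays. In erlotinib it was 9.11, 9.09 and 9.08 with NTC, 9.15, 9.24 and 9.19 with N1, and 8.93, 8.94 and 8.95 with N3. All 9 erlotinib arrays lay below all 9 DMSO arrays, and among the erlotinib arrays the 3 siRNAs did not overlap, with N3 lowest and N1 highest. CCND1 fell by 1.26 on the log2 scale with NTC (standard error 0.04, adjusted p = 2.48e-13 from limma), which left 0.419 of the DMSO level. Its log2 fold change was -1.24 with N1 (adjusted p = 3.32e-13) and -1.46 with N3 (adjusted p = 2.57e-14). In these bulk samples, fewer cells that transcribe the gene and less transcript in each cell cannot be told apart.

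CCND3 encodes cyclin D3, which binds the same kinases. Its log2 levels in DMSO were 6.72, 6.60 and 6.59 with NTC, 6.51, 6.46 and 6.44 with N1, and 6.59, 6.64 and 6.64 with N3. In erlotinib they were 6.23, 6.30 and 6.15 with NTC, 6.24, 6.33 and 6.21 with N1, and 6.15, 6.06 and 6.24 with N3. Erlotinib arrays lay below DMSO arrays for every siRNA. CCND3 fell by 0.41 with NTC (standard error 0.05, adjusted p = 5.41e-06 from limma), by 0.21 with N1 (adjusted p = 0.00331) and by 0.47 with N3 (adjusted p = 8.73e-07).

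CCND2, which encodes cyclin D2, stood close to the median of the arrays, between 4.92 and 5.37 on the 18 arrays. With N3 it was 4.97, 4.92 and 5.15 in DMSO and 5.21, 5.11 and 5.37 in erlotinib, and the arrays overlap. The difference of 0.22 was called (standard error 0.07, adjusted p = 0.0115 from limma). The call was lost without N3 erlotinib array 6 (adjusted p = 0.0801), without N3 DMSO array 2 (adjusted p = 0.0676) or after quantile normalization (adjusted p = 0.132). The difference with NTC was 0.07, with a 95% confidence interval from -0.07 to 0.21, and with N1 0.11, with an interval from -0.03 to 0.25.

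CDK4, one of the kinases that cyclin D activates, was lower in erlotinib with all 3 siRNAs. Its log2 levels with NTC were 9.53, 9.45 and 9.55 in DMSO and 9.28, 9.25 and 9.29 in erlotinib. With N1 they were 9.42, 9.48 and 9.45 in DMSO and 9.26, 9.37 and 9.24 in erlotinib, and with N3 9.48, 9.51 and 9.39 against 9.11, 9.22 and 9.23. No erlotinib array reached the DMSO arrays of its siRNA. The fall was 0.24 with NTC (log2 fold change -0.24, standard error 0.05, adjusted p = 0.000454 from limma), 0.16 in N1 cells (-0.16, adjusted p = 0.00921) and 0.27 with N3 (-0.27, adjusted p = 0.000103). After quantile normalization the N1 value was -0.06 and was not called (adjusted p = 0.292).

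The window of 300 bases around the CDK4 start is shown because CDK4 fell with every siRNA and for its count of the letters CACGTG. No other of the 13 windows found for listed genes holds them so often. It spans chr12:57752261-57752560 on the minus strand of GRCh38.p14 in RefSeq, 250 bases before to 50 after the start, and the capitals mark CACGTG, the E-box that MYC and related factors are known to bind:

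CDK4: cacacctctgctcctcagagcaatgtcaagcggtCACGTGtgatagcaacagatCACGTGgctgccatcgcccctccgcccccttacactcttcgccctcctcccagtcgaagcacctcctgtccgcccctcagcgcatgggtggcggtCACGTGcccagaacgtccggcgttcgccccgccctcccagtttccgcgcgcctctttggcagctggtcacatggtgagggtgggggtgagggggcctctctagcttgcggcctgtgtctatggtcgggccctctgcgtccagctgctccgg

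The E-box reads the same on both strands and stood at positions 35, 55 and 150 of the window, counted from 1 at its 5′ end. At least 1 E-box was found in 7.26% of the 35116 RefSeq promoter windows of this length, and at least 3 in 0.094%. As the window was chosen for this count, these shares are a description. No binding was measured here.

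CDK6, the other kinase partner, had no common direction across the 3 siRNAs. With NTC it was 6.77, 6.75 and 6.76 in DMSO and 6.90, 6.88 and 6.94 in erlotinib. With N1 it was 6.69, 6.87 and 6.97 in DMSO and 6.74, 6.86 and 6.79 in erlotinib. With N3 it was 6.76, 6.85 and 6.75 in DMSO and 6.58, 6.68 and 6.63 in erlotinib. Erlotinib arrays thus lay above DMSO arrays with NTC, among them with N1 and below them with N3. The log2 fold change was 0.15 with NTC (standard error 0.06, adjusted p = 0.0439 from limma), -0.05 in N1 cells (adjusted p = 0.495) and -0.16 with N3 (adjusted p = 0.0303). The NTC call did not hold when any single array of the 6 was left out (adjusted p from 0.0572 to 0.128) nor after quantile normalization (adjusted p = 0.0819). The N3 call was lost without N3 erlotinib array 4 (adjusted p = 0.112) or 6 (0.0632) or N3 DMSO array 2 (0.129), while without N1 DMSO array 1 the N1 value was -0.12 and was called (adjusted p = 0.0401).

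CDKN1B encodes p27, the CIP/KIP inhibitor that binds and restrains cyclin E-CDK2. Its log2 level in DMSO was 7.42, 7.49 and 7.50 with NTC, 7.41, 7.54 and 7.51 with N1, and 7.29, 7.41 and 7.35 with N3. In erlotinib it was 8.04, 7.93 and 8.01 with NTC, 7.91, 7.95 and 7.92 with N1, and 7.76, 7.82 and 7.85 with N3. Every erlotinib array lay above every DMSO array, whichever the siRNA. CDKN1B rose by 0.52 with NTC (standard error 0.05, adjusted p = 4.82e-08 from limma), 1.44 times the DMSO level. It rose by 0.44 with N1 (adjusted p = 4.45e-07) and by 0.46 with N3 (adjusted p = 2.04e-07).

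The CDKN1B window is shown as that of the CDK inhibitor that rose with every siRNA. It spans chr12:12717118-12717417 on the plus strand of GRCh38.p14 in RefSeq, and the capitals mark CCAAT, the box bound by the factor NF-Y, or ATTGG where it lies on the other strand:

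CDKN1B: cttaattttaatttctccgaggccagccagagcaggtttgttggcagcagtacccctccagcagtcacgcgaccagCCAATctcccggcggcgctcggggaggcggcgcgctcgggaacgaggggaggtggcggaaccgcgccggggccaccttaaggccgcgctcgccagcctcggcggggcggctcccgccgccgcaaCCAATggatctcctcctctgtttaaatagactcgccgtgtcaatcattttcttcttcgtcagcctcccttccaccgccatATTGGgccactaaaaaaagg

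The CCAAT box stood at positions 77 and 201 and, on the other strand, at 281. At least 1 was found in 34.6% of all windows and at least 3 in 3.26%. Of the motifs searched, this box had the most matches in the CDKN1B window, so these shares are a description. Binding by NF-Y was not measured here. Windows of the 10 listed genes numbered 13, for 7 genes, and CCND1, CCND2 and CDKN1C had no entry. In those 13 windows, searched on both strands, 4 spellings of the E2F site (TTTCCCGC, TTTCGCGC, TTTGCCGC and TTTGGCGC) gave 0 matches, against 3.31% of all windows with at least 1. The FOXO letters GTAAACA, found in 3.42% of all windows, were in 1 window of CCND3, and the AP-1 letters TGACTCA, found in 4.95%, were in 0.

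CDKN1C, which encodes the CIP/KIP inhibitor p57, was called in N1 cells. There its log2 level was 6.38, 6.20 and 6.15 in DMSO and 6.62, 6.61 and 6.45 in erlotinib, and the arrays do not overlap. It rose by 0.32 (standard error 0.06, adjusted p = 0.000285 from limma). With NTC it was 6.53, 6.41 and 6.36 in DMSO and 6.44, 6.47 and 6.50 in erlotinib, a difference of 0.04 with a 95% confidence interval from -0.09 to 0.16. With N3 it was 6.30, 6.33 and 6.30 against 6.42, 6.40 and 6.48, and these arrays do not overlap either. The N3 difference of 0.12 was not called (adjusted p = 0.100 from limma). It was called where the arrays of these groups alone entered the model (adjusted p = 0.0269).

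RB1 encodes RB, the pocket protein that cyclin D-CDK4/6 inactivates. Its log2 levels in DMSO were 8.27, 8.39 and 8.31 with NTC, 8.44, 8.50 and 8.53 with N1, and 8.33, 8.36 and 8.21 with N3. In erlotinib they were 8.01, 7.94 and 7.99 with NTC, 8.06, 8.14 and 8.33 with N1, and 8.17, 8.18 and 8.14 with N3. RB1 was lower on the erlotinib arrays of each siRNA, with no overlap. It fell by 0.34 with NTC (standard error 0.06, adjusted p = 0.000111 from limma) and by 0.31 with N1 (adjusted p = 0.000277). With N3 the value was -0.14 (adjusted p = 0.0654), with a 95% confidence interval from -0.26 to -0.01, and it was called without N3 DMSO array 3 (adjusted p = 0.0269) and where only the compared arrays were used (adjusted p = 0.0370).

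RBL2 encodes p130, the RB relative that joins E2F4 and the MuvB proteins in the repressor complex of resting cells. In DMSO its log2 level was 8.37, 8.45 and 8.38 with NTC, 8.16, 8.29 and 8.29 with N1, and 8.33, 8.33 and 8.24 with N3. In erlotinib it was 8.81, 8.71 and 8.78 with NTC, 8.62, 8.64 and 8.72 with N1, and 8.83, 8.89 and 8.80 with N3. RBL2 and RB1 thus moved in opposite directions with NTC and with N1, and all 9 erlotinib arrays lay above all 9 DMSO arrays for RBL2. RBL2 rose by 0.37 with NTC (standard error 0.05, adjusted p = 5.25e-06 from limma), by 0.41 with N1 (adjusted p = 1.38e-06) and by 0.54 with N3 (adjusted p = 4.31e-08).

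**Figure D2:**
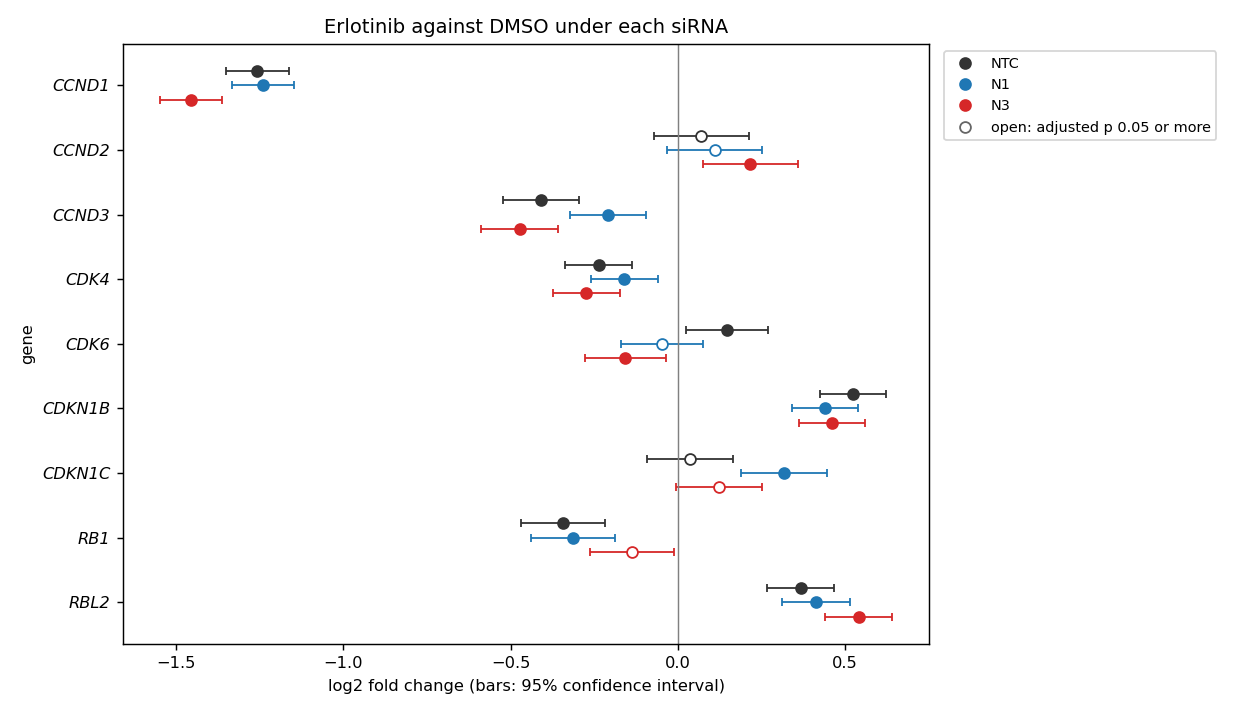
Log2 fold change of erlotinib against DMSO (x axis, bars: 95% confidence intervals) for the 9 genes (y axis) with NTC, N1 and N3 siRNA, open where the adjusted p was 0.05 or more. CCND1 lies between -1.24 and -1.46, CDKN1B between 0.44 and 0.52, and CDK6 changes sign between NTC (0.15) and N3 (-0.16).

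The order of the 6 groups differed by gene. For CCND1 the group means ran from 8.94 ± 0.01 (SD, n = 3 arrays) in N3 erlotinib through 9.09 ± 0.02 in NTC erlotinib and 9.19 ± 0.05 in N1 erlotinib to the DMSO groups, at 10.35 ± 0.05, 10.40 ± 0.08 and 10.43 ± 0.04 with NTC, N3 and N1, whose arrays overlap. For CDKN1B they ran from N3 DMSO at 7.35 ± 0.06 to NTC erlotinib at 7.99 ± 0.06, and NTC and N1 overlapped both in DMSO and in erlotinib. RBL2 was lowest in N1 DMSO, at 8.25 ± 0.08, and highest in N3 erlotinib, at 8.84 ± 0.05, and there NTC erlotinib overlapped both N1 and N3 erlotinib. CDK6 was lowest in N3 erlotinib (6.63 ± 0.05) and highest in NTC erlotinib (6.91 ± 0.03). The range of the group means was 1.49 for CCND1, 0.64 for CDKN1B, 0.59 for RBL2 and 0.51 for RB1, and from 0.22 to 0.49 for the other 5 genes.

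Without erlotinib, the log2 fold changes of the 9 genes with either knockdown lay between -0.19 and 0.17. N1 lowered 3 of the 9 genes in DMSO and raised 0, against 6.97% of all genes lower and 7.75% higher. These were CCND3 (log2 fold change -0.17, standard error 0.05, adjusted p = 0.0474 from limma), CDKN1C (-0.19, adjusted p = 0.0446) and RBL2 (-0.15, adjusted p = 0.0417). N1 and NTC arrays did not overlap for CCND3 and RBL2, and did for CDKN1C. The same-numbered arrays of these 2 groups deviated together, though the labels state no pairing. A limma fit of these 6 arrays with a replicate block was therefore added after seeing the data, and its calls rest on that choice. This fit called CCND3 (adjusted p = 0.0306), CDKN1C (0.0228) and RBL2 (0.0440) lower and RB1 higher (0.0350). The same 6 arrays without the block gave 0.151, 0.205, 0.187 and 0.147 and called none of the 4. In the fit of all 18 arrays RB1 had an adjusted p of 0.0718, and a replicate block over 15 arrays ended the call of RBL2 (adjusted p = 0.0771). The calls of CCND3 and CDKN1C were lost without NTC DMSO array 1 (adjusted p = 0.207 and 0.199), NTC DMSO array 2 (0.0565 and 0.0661), N1 DMSO array 2 (0.133 and 0.159) or N1 DMSO array 3 (0.158 and 0.207), that of RBL2 without any of the 6 arrays (0.0580 to 0.123), and without N1 DMSO array 1 CDK6 was called higher (0.16, adjusted p = 0.0321).

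N3 changed 0 of the 9 genes in DMSO in limma, against 7.24% of all genes higher and 4.8% lower. At an unadjusted p under 0.05, 1 gene passed, CDKN1B, whose log2 fold change was -0.12 (adjusted p = 0.112). That of CCND1 was 0.05, with a 95% confidence interval from -0.05 to 0.14, and that of RBL2 was -0.10, with an interval from -0.20 to 0.00. After quantile normalization CDKN1B (-0.14, adjusted p = 0.0107) and RBL2 (-0.13, adjusted p = 0.0192) were called lower.

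In erlotinib, N1 raised RB1 relative to NTC and the other 8 genes were not called. The counts of 1 higher and 0 lower stand against 11.9% and 9.15% of all genes. RB1 was 8.06, 8.14 and 8.33 with N1 and 8.01, 7.94 and 7.99 with NTC, and the arrays do not overlap. The difference was 0.20 (standard error 0.06, adjusted p = 0.0268 from limma). This call was lost without N1 erlotinib array 3 (0.12, adjusted p = 0.114), NTC erlotinib array 2 (adjusted p = 0.0779) or NTC erlotinib array 3 (adjusted p = 0.0644), with only the compared arrays (adjusted p = 0.0864) or with a replicate block in the fit of 15 arrays, N3 erlotinib left out (adjusted p = 0.0529). CCND1 also stood higher on every N1 array, by 0.10 with a 95% confidence interval from 0.01 to 0.19, and was not called (adjusted p = 0.119 from limma). N1 and NTC arrays did not overlap for CCND2 and CDK6 either. CCND2 was higher with N1 (0.06, adjusted p = 0.557) and CDK6 lower (-0.11, adjusted p = 0.196).

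In erlotinib, N3 lowered CCND1, CDK6 and CDKN1B relative to NTC and raised RB1, so that an activating cyclin, a kinase and an inhibitor were all lower. The counts of 1 higher and 3 lower stand against 7.93% and 10.5% of all genes. CDK6 was lower by 0.28 (log2 fold change -0.28, standard error 0.06, adjusted p = 0.00255 from limma), and this call held without each of the 6 arrays. CDKN1B was lower by 0.18 (-0.18, adjusted p = 0.00985), CCND1 by 0.15 (-0.15, adjusted p = 0.0207), and RB1 was higher by 0.18 (adjusted p = 0.0411). N3 and NTC arrays did not overlap for any of these genes. They did not overlap for CDK4 either, which was not called (adjusted p = 0.245 from limma). In DMSO, where N3 gave 0 calls, they did not overlap for CDKN1B, CDKN1C and RBL2. Lack of overlap thus did not set the called genes apart, and its share among all genes is not given here. CCND1 was not called without N3 erlotinib array 4 (adjusted p = 0.0676) or 5 (0.0602) or NTC erlotinib array 1 (0.0700) or 2 (0.0525), CDKN1B without N3 erlotinib array 4 (0.0560) or NTC erlotinib array 1 (0.0515), and RB1 without any of the 6 arrays (0.0626 to 0.130).

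**Figure D3:**
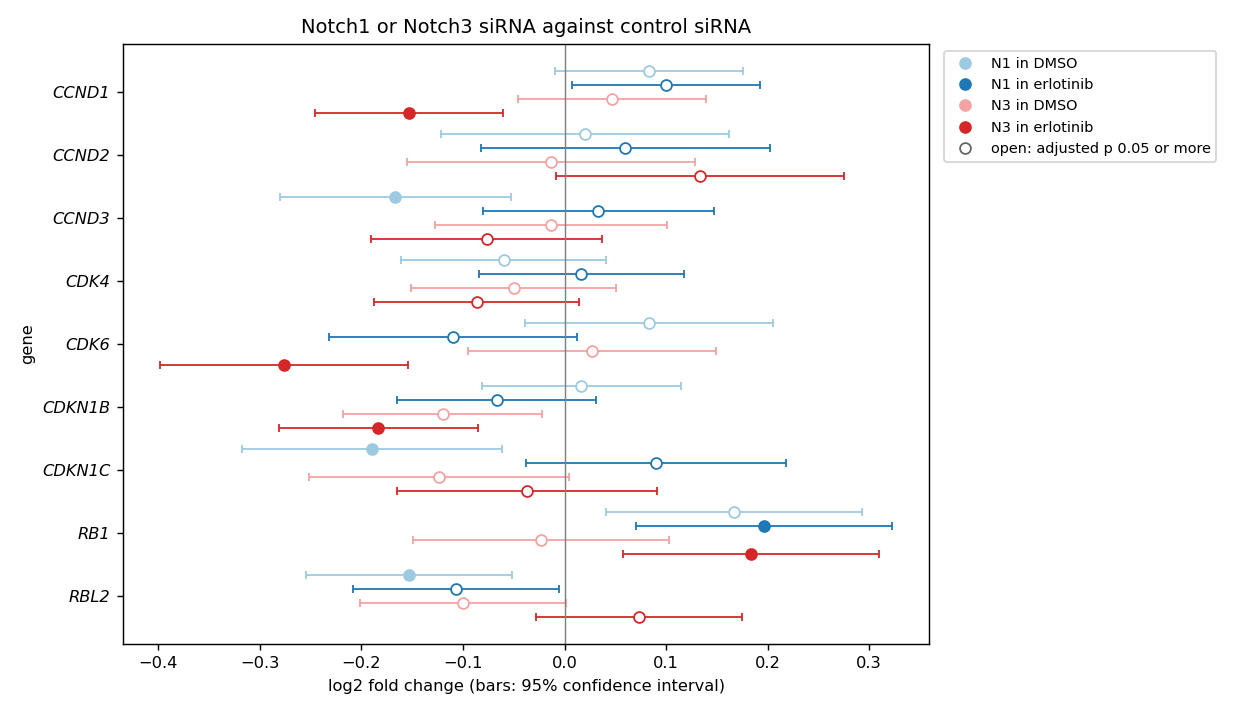
Log2 fold change of N1 or N3 against NTC siRNA (x axis, bars: 95% confidence intervals) in DMSO and in erlotinib for the 9 genes (y axis), open where the adjusted p was 0.05 or more. In erlotinib N3 gives -0.28 for CDK6, -0.18 for CDKN1B and -0.15 for CCND1, and 0.18 for RB1.

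Whether knockdown altered the response to erlotinib was tested as the difference between the log2 fold changes of erlotinib in knockdown and in NTC cells. Both differences use the NTC arrays. With N1, 1 gene was called higher, CDKN1C, and 0 lower, against 8.04% and 6.04% of all genes. Its response was greater by 0.28 (standard error 0.09, 95% confidence interval from 0.10 to 0.46, adjusted p = 0.0394 from limma). The call was lost without NTC DMSO array 1, N1 DMSO array 2 or 3, N1 erlotinib array 1 or 2, or NTC erlotinib array 1, 2 or 3 (adjusted p from 0.0522 to 0.109), and without N1 DMSO array 1 CDK6 was called lower (-0.27, adjusted p = 0.0120). The CDKN1C arrays of N1 and NTC overlap both in DMSO and in erlotinib.

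With N3, 0 genes were called higher and 1 lower, CDK6, against 1.63% and 4.27% of all genes. Its response was lower by 0.30 (-0.30, standard error 0.08, 95% confidence interval from -0.48 to -0.13, adjusted p = 0.0359 from limma). This call was lost in 9 of the 12 fits that left out 1 array, those without NTC DMSO array 1, 2 or 3, N3 DMSO array 1 or 2, NTC erlotinib array 1 or 3, or N3 erlotinib array 4 or 6 (adjusted p from 0.0506 to 0.105). The deeper fall of CCND1 with N3 was a difference of -0.20, with a 95% confidence interval from -0.33 to -0.07, and was not called (adjusted p = 0.0710), though it was without N3 DMSO array 3 (adjusted p = 0.0256) and after quantile normalization (adjusted p = 0.0322). For RB1 and RBL2 the N3 differences were 0.21 (adjusted p = 0.202) and 0.17 (adjusted p = 0.177), the latter called after quantile normalization (0.20, adjusted p = 0.0225).

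Levels of the 9 genes were also set against each other across the 18 arrays, which share group, RNA and normalization, so the coefficients are a description. CCND1 ran with CDK4 (Pearson r = 0.918) and CCND3 (0.916) and against RBL2 (-0.956) and CDKN1B (-0.921), and CDKN1B ran with RBL2 (0.879). After the group means were taken off, r was 0.724 for CCND1 and CDK4, 0.123 for CCND1 and CCND3, 0.323 for CCND1 and RBL2, 0.0842 for CCND1 and CDKN1B, and 0.503 for CDKN1B and RBL2, so that neither negative value stayed negative. Among all tested genes, those most like CCND1 were PAPSS2 (r = 0.998, and 0.757 within groups), XRCC6 (0.998 and 0.506) and AURKA (0.998 and 0.471). The 3 most like CDKN1B were STX16 (0.990 and 0.806), FRAS1 (0.988 and 0.661) and ME3 (0.987 and 0.681). For RBL2 they were FAM149B1 (0.986 and 0.790), ZNF514 (0.986 and 0.879) and BLTP1 (0.984 and 0.838).

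Genes listed as E2F targets were lower in erlotinib. The list was chosen with earlier results of these data known, and E2F activity was not measured. In these bulk samples, fewer cells that transcribe these genes and less transcript in each cell cannot be told apart. All 9 E2F targets tested were lower in NTC cells, with a median log2 fold change of -1.78 against -0.02 over all genes. CCNA2, which encodes cyclin A2, fell by 3.00 (standard error 0.07, adjusted p = 1.16e-15 from limma), and CDC6, which licenses replication origins, by 2.84. RRM2 and TYMS, of nucleotide synthesis, changed by -2.14 and -2.09. Cyclin E, CDK2 and the phosphatase CDC25A act next to cyclin D at the G1/S boundary, and all 4 of their genes fell, with log2 fold changes of -1.84 for CCNE2, -1.17 for CDK2, -1.09 for CDC25A and -0.80 for CCNE1.

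Counts in these lists stand against the 25.4% of all genes that were lower and the 24.6% that were higher with erlotinib in NTC cells. Of the 10 E2F and DP genes, 6 were lower, 1 higher and 3 not called, with a median of -0.47. The repressors E2F8 and E2F7 fell (log2 fold changes of -2.07 and -2.03), as did the partner TFDP1 (-0.76), while the other partner, TFDP2, rose by 0.59. Among the other inhibitors and p107, RBL1, which encodes p107, the third pocket protein, fell by 1.43 (standard error 0.07, adjusted p = 3.22e-11 from limma), opposite to RBL2. CDKN1A (p21) stood at 0.04 (adjusted p = 0.595), CDKN2A at -0.02 (adjusted p = 0.822) and CDKN2D at -0.15 (adjusted p = 0.111), and CDKN2B, at a mean of 4.43 in NTC DMSO, was below the noise filter. Of the 5 MuvB genes, 4 were lower and 1 higher, led by LIN9 (-0.84), LIN54 (-0.78), LIN52 (-0.41) and LIN37 (0.16). Of the 10 genes of cyclin D and p27 turnover, 3 were higher and 2 lower, shares near those of all genes. CKS1B and SKP2, which together mark p27 for degradation, changed by -1.56 and -0.67, USP2, which removes ubiquitin from cyclin D1, rose by 0.32, and AMBRA1, which directs the degradation of D-type cyclins, rose by 0.27. In the CDK-activating kinase, 1 of 3 was lower, MNAT1 (-0.31).

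**Figure D4:**
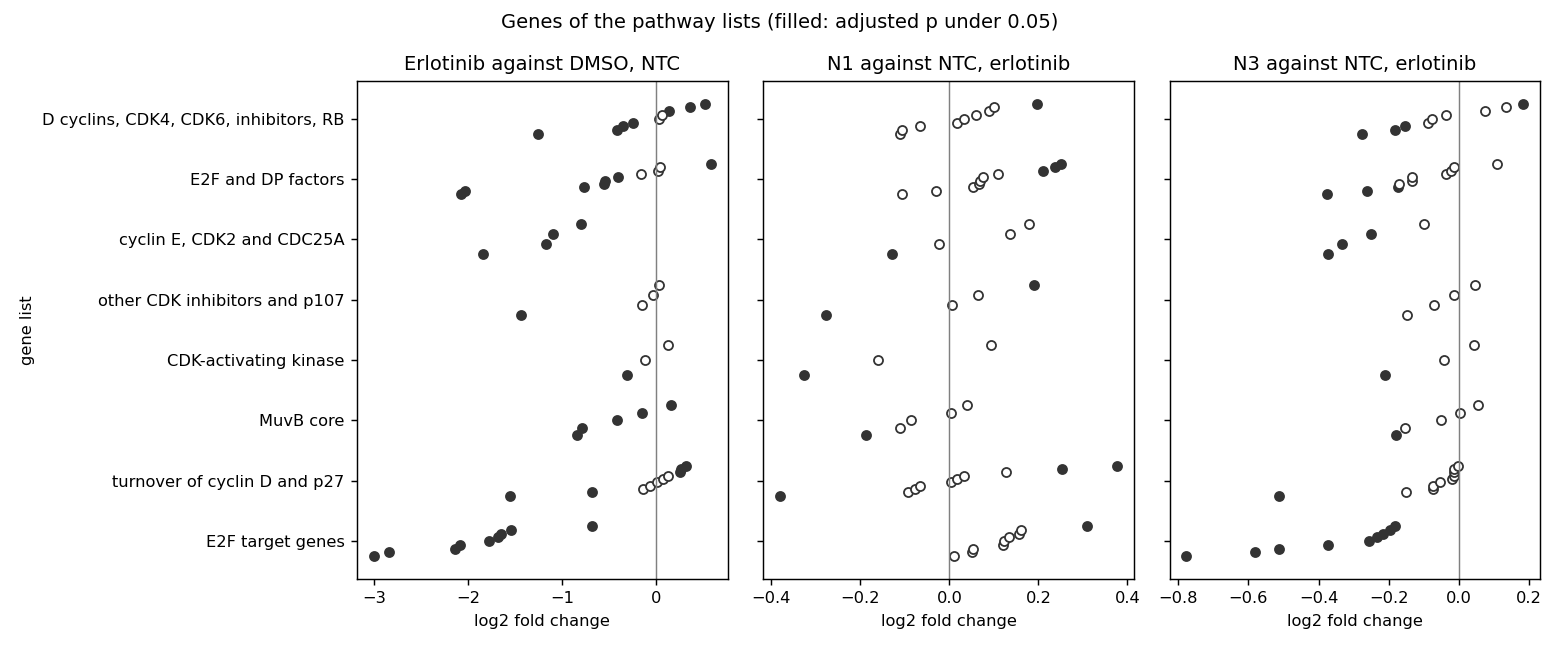
Log2 fold change (x axis) of each tested gene (points) of the 9 members and of 7 other lists of the pathway (y axis), in 3 panels: erlotinib against DMSO in NTC cells, and N1 and N3 against NTC in erlotinib. Filled points are called genes, points are spread vertically within a list only to be seen apart, and the panels have x scales of their own. The 9 E2F targets lie between -3.00 and -0.68 in the first panel and between -0.78 and -0.18 in that of N3.

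In erlotinib, N3 lowered all 9 E2F targets further relative to NTC, with a median of -0.26 against -0.01 over all genes, of which 10.5% were lower and 7.93% higher. CCNA2 stood at 6.96 ± 0.08 (SD, n = 3 arrays) with NTC and 6.18 ± 0.12 with N3, a difference of -0.78 (standard error 0.07, adjusted p = 4.75e-07 from limma), RRM2 was lower by 0.58 (-0.58) and CDC6 by 0.51 (-0.51). Of the 4 cyclin E, CDK2 and CDC25A genes, 3 were lower, CCNE2 (-0.37), CDC25A (-0.33) and CCNE1 (-0.25), of the 10 E2F and DP genes 3, led by E2F8 (-0.38) and E2F5 (-0.26), and of the turnover genes 1, SKP2 (-0.51, adjusted p = 4.18e-05). The CDK-activating kinase had 1 of 3 lower, CDK7 (-0.21), MuvB 1 of 5, LIN52 (-0.18), and the other inhibitors and p107 had 0 of 4 called. The difference in response between N3 and NTC was called lower for 5 of the 9 E2F targets, CCNA2 among them (-0.66, adjusted p = 0.000396). It was also called lower for 2 of the 4 cyclin E, CDK2 and CDC25A genes. Of all genes, 4.27% were lower and 1.63% higher in this difference.

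N1 in erlotinib, where 11.9% of all genes were higher and 9.15% lower, raised 1 of the 9 E2F targets relative to NTC, CDC6 (0.31, standard error 0.07, adjusted p = 0.00395 from limma), and lowered 0. It raised 3 E2F and DP genes, E2F8 (0.25), E2F4 (0.24) and E2F7 (0.21), and CDKN1A by 0.19 (adjusted p = 0.0218), and lowered RBL1 (-0.28, adjusted p = 0.0117). SKP2 was higher by 0.25 (adjusted p = 0.0136) and USP2 by 0.38, while CUL4B, a ubiquitin ligase scaffold, was lower (-0.38, adjusted p = 7.14e-05). In each of 3 more lists 1 gene was lower, CCNE1 (-0.13), CCNH of the CDK-activating kinase (-0.33) and RBBP4 of MuvB (-0.19). In DMSO, N1 changed 1 of the 45 tested genes of these lists, CCNE1 (-0.24, adjusted p = 0.00118 from limma). Of all genes, 6.97% were lower and 7.75% higher there. N3 in DMSO changed 0 of the 45 in limma, against 7.24% of all genes higher and 4.8% lower, and 9 passed at an unadjusted p under 0.05.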

How the data were processed

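Total RNA of the 18 samples was hybridized to the GeneChip Human Transcriptome Array 2.0. In Affymetrix Expression Console the authors ran RMA (background correction, normalization across arrays, 1 value per feature), and the deposited log2 values were used as given. For RMA and for the annotation, version and build were not given in the sources used here. RMA normalization pulls the arrays toward a common distribution, so differences are relative to the bulk of genes, and summarization compresses large fold changes. Features were named from a platform table, in which 23781 name 1 gene, 1543 several and 45199 none.

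The noise filter asked for a level over an array's 50th percentile on 3 arrays or more, and the feature of highest mean was taken for each gene. The 6 group means of all 18 arrays were fitted in limma 3.58.1 (lmFit, contrasts.fit and eBayes, R 4.3.3) with 12 residual degrees of freedom. The p values are two-sided. Arrays were simulated for erlotinib against DMSO in NTC cells, with 16336 genes, of which 50 were changed at each fold. An adjusted p under 0.05 recovered 72% of genes changed 1.2-fold, 92% at 1.5-fold and 100% at 2-fold and 3-fold. There were 6 false among 188 calls. A far larger share of genes was called in the data than was changed there, and the adjustment depends on that share. The simulated shares therefore need not hold for the data. The number of arrays limits the precision.

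The members and the other lists were chosen with earlier results of these data known. Named genes were all members, up to 4 called genes of each other list with the largest change, for erlotinib in NTC cells and for each knockdown in erlotinib, and the 3 genes most correlated with each of the 3 members of the widest range. Those named without a call, and the features absent or below the filter, were added after their values were seen. Deviations from the group means were correlated between arrays of the same number to see if the numbers pair them. For NTC DMSO with N1 DMSO this gave 0.687, 0.243 and 0.493, all over 0.1, while each other pair of groups had a value under 0.1. Alternatives tried were a fit without the noise filter, a 75th percentile in it, every feature of a gene, the thresholds of the Methods, a model of the compared arrays alone, quantile normalization, limma's trend and robust options, a replicate block, and the omission of single arrays.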

Additional observations from a re-analysis of the deposited data

Results flagged for a closer look

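The response of CDKN1C to erlotinib differed between N1 and NTC cells by the test of the difference itself. It was greater by 0.28 on the log2 scale with N1 (adjusted p = 0.0394 from limma). The call was lost in 8 of the 12 fits that left out 1 array and without the noise filter (adjusted p = 0.0597). The response of CDK6 differed between N3 and NTC cells in the same kind of test, by -0.30 (adjusted p = 0.0359 from limma), with a log2 fold change of 0.15 in NTC cells and -0.16 in N3 cells. This call was lost in 9 of the 12 fits that left out 1 array and without the noise filter (adjusted p = 0.0559).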

How the results depend on the processing

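Under the thresholds of the Methods, each erlotinib comparison gave 0 genes higher and 1 lower, and the counts were 0 for N1 in DMSO (lower), N1 in erlotinib (higher), N3 in erlotinib (higher and lower), and both differences in response. Without the noise filter the counts were 0 for N1 in DMSO (lower), N3 in erlotinib (higher) and both differences in response. With the limit at the 75th percentile, which left CCND2 and CDKN1C untested, 1 gene was higher with N1 in DMSO, 0 in the N1 difference in response, and 2 were lower in the N3 difference. The fit of only the compared arrays gave 0 for N1 in DMSO (lower), N1 in erlotinib (higher) and the N1 difference (higher). Quantile normalization gave 1 lower with N1 in DMSO, 2 lower with N3 in DMSO, 1 lower with N1 in erlotinib, and 1 higher and 2 lower in the N3 difference. The mean-variance trend gave 2 lower in the N3 difference. A replicate block over 15 arrays gave 0 higher for N1 in erlotinib, and a replicate block over the 6 paired arrays, an alternative chosen after seeing the data, gave 1 higher for N1 in DMSO. Over 15 arrays the block also ended the calls of CDK6 with erlotinib in NTC cells (adjusted p = 0.0502) and RBL2 with N1 in DMSO (adjusted p = 0.0771), and changed no other call but that of RB1 with N1 in erlotinib. For N1 in DMSO the 6-array block gave 1658 genes higher and 1878 lower, against 323 and 193 for the same arrays without the block and 1266 and 1139 for all 18 arrays. The causes of these differences were not tested.

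With 1 array left out in turn, erlotinib in NTC cells gave 2 genes higher, as CDK6 was lost, and 4 lower in each fit. In N1 cells it gave 3 higher and from 4 to 5 lower, and in N3 cells from 2 to 3 higher and 3 to 5 lower. For N1 in DMSO the counts ran from 0 to 1 higher and 0 to 2 lower, and for N1 in erlotinib from 0 to 1 higher. For N3 in erlotinib they stood at 0 higher and ran from 1 to 3 lower. The N1 difference had from 0 to 1 higher and 0 to 1 lower, and the N3 difference from 0 to 2 lower. The directions that turned were those of genes that were not called. In these fits CDK6 with erlotinib in N1 cells ran from -0.12 to 0.017. For N1 in DMSO CCND2 ran from -0.017 to 0.073 and CDKN1B from -0.01 to 0.055. For N3 in DMSO CCND2 ran from -0.082 to 0.033, CCND3 from -0.037 to 0.028, CDK6 from -0.005 to 0.045 and RB1 from -0.053 to 0.022. For N1 in erlotinib CCND3 ran from -0.005 to 0.07 and CDK4 from -0.023 to 0.042. In the N1 difference CCND1 ran from -0.0067 to 0.047, CCND2 from -0.013 to 0.077 and RB1 from -0.047 to 0.088, and in the N3 difference CDK4 ran from -0.072 to 0.0017. Quantile normalization turned CDKN1C with erlotinib in NTC cells to -0.0026, CCND2 with N3 in DMSO to 0.024 and CCND2 in the N1 difference to -0.011. The count of all genes moved by over 1.5 times with only the compared arrays, for N1 in DMSO as above, to 429 lower for N3 in DMSO (784) and 637 and 458 for the N1 difference (1313 and 986), and with quantile normalization to 463 higher in the N3 difference (267). The erlotinib falls of CCND1 and CCND3 and the rises of CDKN1B and RBL2 kept their call and direction in every fit with each siRNA, except that they were below 2-fold, CCND1 apart, under the thresholds of the Methods. Arrays were left out in turn for the 9 genes only.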
